A study of Homo sapiens with 39 samples.

Results

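The genes described here are 41 genes of the endoplasmic reticulum (ER) that fold, move, export or degrade secreted proteins, taken by name from a count table of 57773 gene identifiers. They comprise 5 stress sensors and related genes, 9 chaperones and their partners, 7 lectin chaperones and disulfide enzymes, 9 genes of ER-associated degradation, and 11 genes of translocation and export. All 41 were found, and all 41 were among the 14460 genes with enough counts to be tested. RNA was sequenced from JJN3, a human multiple myeloma cell line, grown in RPMI medium with fetal calf serum. The groups are GSK-J4, ZnSO4 and DMSO, each at 1, 3, 6 and 24 h, and T0, the cells at time 0, with 3 libraries in each of the 13 groups. GSK-J4 is a cell-permeable ester described as an inhibitor of the KDM6 histone H3K27 demethylases. ZnSO4 is zinc sulfate, a soluble zinc salt, and DMSO is the vehicle. The treatment labels name ZnSO4 alone for its groups and do not say whether those cells also had DMSO. If they had none, effects of ZnSO4 and of lacking DMSO cannot be told apart. All groups share the 1 cell line, and no source used here gives the doses. The labels do not say that the 3 libraries of a group came from separate cultures, so the p-values rest on the spread of libraries alone, which may be technical.

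Plasma cells and the myelomas derived from them make large amounts of immunoglobulin, and the ER is where those chains are inserted, folded, paired by disulfide bonds and inspected. Proteins that fail to fold are drawn back into the cytosol and degraded, and an excess of them sets off the unfolded protein response through 3 membrane sensors, IRE1 (encoded by ERN1), PERK (encoded by EIF2AK3) and ATF6. IRE1 splices the XBP1 mRNA, ATF6 is cut to release a transcription factor, and PERK slows translation while favouring ATF4. XBP1 and ATF6 are known to raise chaperone and degradation genes. Counts per gene cannot tell spliced XBP1 mRNA from unspliced.

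Library totals were 4347745 to 10695671 counts (median 6010529), where a floor of 3 counts equals 0.28 to 0.69 CPM (counts scaled to the library size). Levels below are CPM scaled by TMM (trimmed mean of M-values) factors, fold changes are log2 with their standard error (SE), and a gene was called when its adjusted p from edgeR's quasi-likelihood test was below 0.05 over all genes tested. The 7 plasma cell markers checked held counts in every library, for example SDC1 at 111 to 274 CPM and IRF4 at 467 to 1375 CPM. Of 10 markers of other cell types, CD3D was at 0 in 38 libraries, LYZ in 33, HBA1 in 26 and CD3E in 5. CD14 (0.123 to 1.25 CPM), KRT18 (0.164 to 2.23 CPM) and HBB (0.18 to 2.47 CPM) were low but at 0 in no library. EPCAM (30.8 to 62.6 CPM), COL1A1 (3.6 to 32.7 CPM) and COL1A2 (1.06 to 33.2 CPM) were also detected. The part of these markers in the results was not tested. In RNA from whole cultures, fewer cells expressing a gene and less RNA per cell cannot be told apart. The T0 libraries differed among themselves: DERL3 had 154, 219 and 255 CPM and HSP90B1 had 3721, 4403 and 5029 CPM.

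The 41 genes spanned a wide range of levels. Per kilobase of merged exon, T0 cells had most of HSP90B1, the ER member of the HSP90 family, at 934 ± 139 CPM per kb (SD, n = 3 here and below). The next were CALR (572 ± 27.8 CPM per kb), HSPA5 (443 ± 25.5), PDIA6 (321 ± 18) and CANX (246 ± 8.41 CPM per kb). The lowest levels were those of EIF2AK3 (4.42 ± 0.276 CPM per kb), ERN1 (4.46 ± 0.4) and SEC24D (5.89 ± 0.37 CPM per kb). CALR and HSPA5 stood apart from their neighbours by more than those SDs, whereas EIF2AK3 and ERN1 did not.

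Promoters of 36 of the 41 genes were available from RefSeq (GRCh38.p14, 250 bases before to 50 bases after the gene start), in 47 windows. They were searched on both strands for elements known from ER stress genes. Only exact matches to the letters given were taken, so near copies are neither counted nor put in capitals below. The ER stress element, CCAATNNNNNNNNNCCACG, occurred in 7 of the 36 genes (19.4%), namely HSPA5, HSP90B1, CALR, CANX, PDIA6, CRELD2 and XBP1, against 0.0916% of the 27305 genes with a window. The ER stress element II, ATTGGNCCACG, occurred in HERPUD1, HYOU1 and SDF2L1 (8.33% of the 36, against 0.0696% of all). The XBP1 core TGACGTGG occurred in HYOU1, SSR3, SSR4 and TXNDC5 (11.1% against 0.927%), and in HYOU1 it overlaps a copy of element II. A metal element core, TGCACNC or TGCGCNC, was in 14 of the 36 (38.9%, against 33.4% of all genes), and the C/EBP-ATF letters TGATGNAAT and a heat shock element were in none of the windows of these genes, against 1.22% and 0.608% of all. These letters are a description, not evidence of binding. Because the elements were taken as known from ER stress genes, their higher share among these genes adds no support.
The promoters of HERPUD1 (chr16:56931892-56932141, plus strand) and HSPA5 (chr9:125241344-125241593, minus strand) are shown for the 250 bases before the start, because the 2 genes have these elements and moved apart. The stretches around the elements in 7 other genes follow for comparison. CANX also has the ER stress element but is not shown. Each is written 5′ to 3′ along the gene, with the element, on either strand, in capitals.
HERPUD1: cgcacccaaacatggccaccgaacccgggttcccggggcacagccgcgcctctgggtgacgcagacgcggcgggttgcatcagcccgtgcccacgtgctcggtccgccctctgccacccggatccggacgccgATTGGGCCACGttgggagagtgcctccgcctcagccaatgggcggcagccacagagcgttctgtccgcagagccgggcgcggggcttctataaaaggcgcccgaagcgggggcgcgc
HSPA5: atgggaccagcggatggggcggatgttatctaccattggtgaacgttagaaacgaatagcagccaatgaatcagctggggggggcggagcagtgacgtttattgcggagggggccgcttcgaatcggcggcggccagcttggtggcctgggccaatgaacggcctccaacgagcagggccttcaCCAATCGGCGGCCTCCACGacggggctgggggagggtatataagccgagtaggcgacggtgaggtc
HSP90B1 (chr12:103930198-103930357, plus strand): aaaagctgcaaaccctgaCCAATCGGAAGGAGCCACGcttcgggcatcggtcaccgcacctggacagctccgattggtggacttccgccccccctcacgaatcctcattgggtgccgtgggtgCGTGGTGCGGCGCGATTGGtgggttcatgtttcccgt
XBP1 (chr22:28800585-28800639, minus strand): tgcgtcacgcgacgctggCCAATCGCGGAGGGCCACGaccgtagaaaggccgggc
CALR (chr19:12938366-12938420, plus strand): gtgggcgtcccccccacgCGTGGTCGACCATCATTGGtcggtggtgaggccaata
PDIA6 (chr2:10812835-10812889, minus strand): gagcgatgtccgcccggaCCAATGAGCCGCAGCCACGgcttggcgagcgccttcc
CRELD2 (chr22:49918536-49918590, plus strand): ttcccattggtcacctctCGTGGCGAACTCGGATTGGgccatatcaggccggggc
HYOU1 (chr11:119057256-119057408, minus strand): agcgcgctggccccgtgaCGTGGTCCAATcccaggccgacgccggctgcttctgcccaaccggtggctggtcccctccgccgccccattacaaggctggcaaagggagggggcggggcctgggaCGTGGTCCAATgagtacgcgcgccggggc
SDF2L1 (chr22:21642096-21642142, plus strand): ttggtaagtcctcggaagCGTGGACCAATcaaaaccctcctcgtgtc
HSP90B1 has 2 copies of the ER stress element and HYOU1 has 2 of element II in these stretches. Genes with the same element did not move as 1 group. At 6 h of GSK-J4, of the 7 genes with the ER stress element XBP1 was called higher, 4 were called lower (HSPA5, HSP90B1, CALR and PDIA6) and 2 did not pass (CANX and CRELD2). The PDIA6 groups overlapped, and its call was lost when some single libraries were left out. Of the 3 genes with element II, HERPUD1 was higher, SDF2L1 was lower and HYOU1 did not pass.

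With GSK-J4, the IRE1 gene and the degradation genes HERPUD1 and EDEM1 were higher by 3 h. Several folding genes were lower at 6 h. By 24 h most degradation genes and several translocation and export genes were higher. Against DMSO of the same time, 0 of the 41 genes were called at 1 h, where 0.104% of all tested genes were. At 3 h 5 were called higher and 0 lower, where 1.45% of all tested genes were higher and 0.927% lower. At 6 h 7 were higher and 15 lower (9.83% and 10.5% of all), with a median log2 fold change of -0.07 over the 41 and 0.01 over all genes. At 24 h 18 were higher and 4 lower (15.2% and 16.8% of all), with medians of 0.11 and 0.02. When libraries were scaled by their totals alone, the 24 h split became 26 higher and 2 lower, while the median of all genes moved to 0.11. At 1 h 1 gene had an unadjusted p below 0.05, and DESeq2 also called 0. The 3 h count fell to 3 (ERN1, HERPUD1 and EDEM1) without DMSO replicate 1 or 3 or without GSK-J4 replicate 1 or 2. It became 11, with 6 higher and 5 lower, when the 3 h libraries of GSK-J4 and DMSO were fitted alone. The share of all genes called in that fit is not given here, so that count cannot be set against it. With any 1 library of the comparison left out, 14 of the 22 calls at 6 h and 17 of the 22 at 24 h were kept. Those kept at 6 h were 7 higher and 7 lower, so every call lost there was a fall. The 6 h count fell to 15 without DMSO replicate 3.

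With ZnSO4 the calls were mostly lower and small. The comparisons of GSK-J4 and ZnSO4 share their DMSO libraries. Against DMSO, 0 genes were called at 1 h (0.678% of all tested), and 2 were higher and 6 lower at 3 h (6.59% and 4.16% of all). At 6 h 1 was higher and 16 lower (4.81% and 4.51% of all), and at 24 h 0 were higher and 17 lower (3.98% and 5.58% of all). The median log2 fold change of the 41 was -0.15 at 6 h and -0.12 at 24 h, against 0.01 and -0.00 over all genes. Again 1 gene had an unadjusted p below 0.05 at 1 h, and DESeq2 called 0. The count at 3 h fell to 5 without DMSO replicate 1 or 3 or ZnSO4 replicate 3, and to 5 without the filter on low counts. At 6 h it fell to 8 without DMSO replicate 3, and to 7 when the 2 groups were fitted alone. At 24 h it fell to 8 without ZnSO4 replicate 3. The calls kept when any 1 library was left out were 4 at 3 h, 4 at 6 h and 7 at 24 h, all of them lower.

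**Figure D1:**
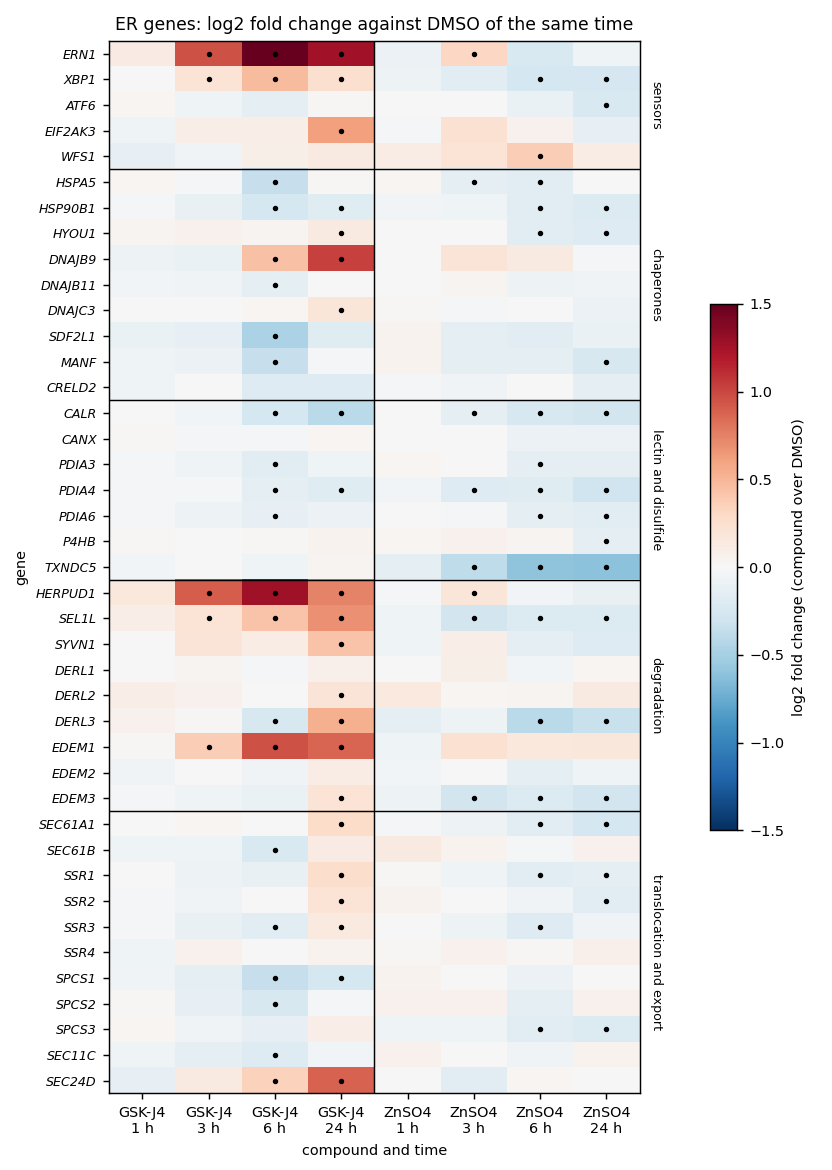
Log2 fold change of each of the 41 genes (rows, by role) for GSK-J4 over DMSO and ZnSO4 over DMSO at 1, 3, 6 and 24 h (columns), on a colour scale that ends at ±1.5. Black dots mark calls. ERN1 and HERPUD1 hold the darkest rises under GSK-J4, TXNDC5 is the darkest fall under ZnSO4, and the 1 h columns hold no dot.

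Among the sensors, ERN1 changed most with GSK-J4. At 3 h ERN1 had 85.5, 85 and 84.2 CPM with GSK-J4, against 39.5, 47.8 and 44.9 CPM with DMSO (0.95 ± 0.08, edgeR adjusted p = 8.3e-14). At 6 h it had 148, 159 and 140 CPM with GSK-J4, against 53.5, 48.6 and 56.5 CPM with DMSO (1.49 ± 0.08, edgeR adjusted p = 2.2e-24). At 24 h the values were 123, 118 and 128 CPM with GSK-J4, against 53.6, 48.4 and 52.3 CPM with DMSO (1.26 ± 0.08). Every GSK-J4 library lay above every DMSO library at these 3 times, and the effect was larger at 6 h than at 3 h by 0.54 ± 0.12 (edgeR adjusted p = 0.0018). With ZnSO4, ERN1 had 55.6, 48.3 and 59.9 CPM at 3 h, just above the DMSO libraries (0.31 ± 0.09, edgeR adjusted p = 0.015). That call was lost without DMSO replicate 1 or ZnSO4 replicate 3. At 6 h it had 44.1, 43.6 and 47 CPM with ZnSO4 (-0.23 ± 0.09, not called).

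XBP1, the transcription factor whose mRNA IRE1 splices, moved in opposite directions with the 2 compounds. At 6 h XBP1 had 458, 465 and 489 CPM with GSK-J4 and 282, 292 and 279 CPM with ZnSO4, against 313, 326 and 382 CPM with DMSO. The GSK-J4 libraries were all higher and the ZnSO4 libraries all lower than the DMSO libraries, by 0.47 ± 0.06 for GSK-J4 (edgeR adjusted p = 2.2e-09) and by -0.26 ± 0.06 for ZnSO4 (edgeR adjusted p = 0.0017). Without DMSO replicate 3, the highest of its group, the ZnSO4 call at 6 h was lost. At 24 h XBP1 had 342, 351 and 348 CPM with GSK-J4 and 255, 258 and 232 CPM with ZnSO4, against 292, 296 and 296 CPM with DMSO. The order of the 3 groups was thus the one seen at 6 h, with no overlap, and the log2 fold changes were 0.24 ± 0.06 for GSK-J4 and -0.25 ± 0.06 for ZnSO4. The ZnSO4 call at 24 h was lost without ZnSO4 replicate 3. Between GSK-J4 and ZnSO4 themselves XBP1 differed by 0.73 ± 0.06 at 6 h and 0.48 ± 0.06 at 24 h. The 3 h call with GSK-J4 (0.20 ± 0.06) was lost when any 1 of the 6 libraries was left out. XBP1 has a pseudogene of its name, whose reads the deposited counts may share.

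EIF2AK3 was called with GSK-J4 at 24 h only among the times tested. It then had 84.1, 93.6 and 86.9 CPM with GSK-J4 and 55.8, 50.9 and 52.4 CPM with ZnSO4, against 59.9, 58.4 and 54.6 CPM with DMSO. The GSK-J4 libraries stood clear of the rest (0.61 ± 0.09 against DMSO, edgeR adjusted p = 7.3e-08), and ZnSO4 did not pass (-0.12 ± 0.10). At 6 h the GSK-J4 value was 0.10 ± 0.12, and the effect grew from 6 to 24 h by 0.51 ± 0.15 (edgeR adjusted p = 0.024), a difference lost without 5 of the 12 libraries in turn. ATF6 was called at no time with GSK-J4 (0.02 ± 0.05 at 24 h) and was called lower with ZnSO4 at 24 h, at 160, 170 and 159 CPM with ZnSO4 against 191, 199 and 186 CPM with DMSO (-0.23 ± 0.06, edgeR adjusted p = 0.0033). WFS1, an ER membrane protein tied to calcium balance, was higher with ZnSO4 at 6 h, with 45.5, 54 and 55.7 CPM against 42.6, 39.1 and 38.5 CPM with DMSO (0.37 ± 0.09). That call was lost without ZnSO4 replicate 3, and WFS1 was called at no time with GSK-J4.

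**Figure D2:**
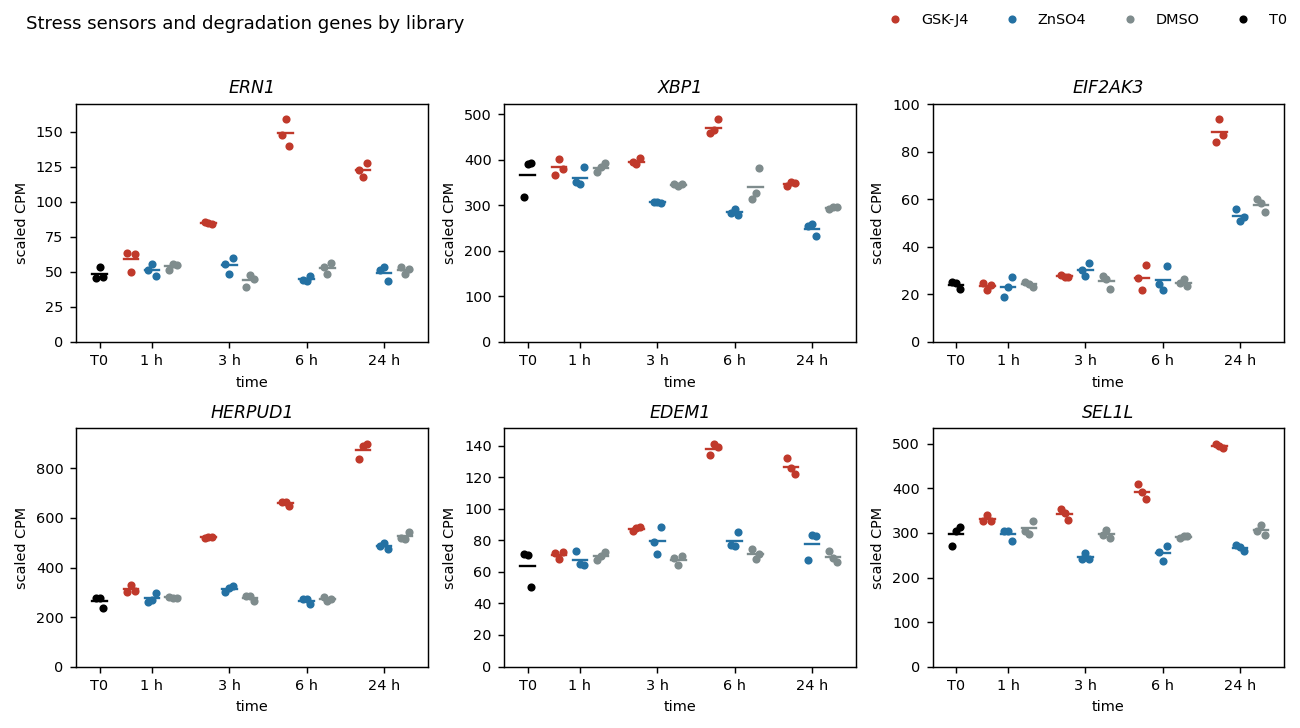
Scaled CPM of 6 genes in each of the 39 libraries (points) with the group mean (line), for T0 and for GSK-J4, ZnSO4 and DMSO at each time. GSK-J4 libraries of ERN1 and HERPUD1 stand above the others from 3 h on, those of EDEM1 above DMSO at 3 h and above both other groups at 6 and 24 h, those of EIF2AK3 at 24 h, and all 24 h groups of HERPUD1 lie above its T0 level.

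Several degradation genes were higher with GSK-J4, most of them by 24 h. At 3, 6 and 24 h GSK-J4 had 3, 3 and 7 of the 9 higher and 0, 1 and 0 lower, with a median of 0.43 at 24 h. Over all tested genes 1.45%, 9.83% and 15.2% were higher and 0.927%, 10.5% and 16.8% lower. ZnSO4 had 1, 0 and 0 of the 9 higher and 2, 3 and 3 lower. For ZnSO4 6.59%, 4.81% and 3.98% of all were higher and 4.16%, 4.51% and 5.58% lower. HERPUD1, a membrane protein that helps assemble the retrotranslocation machinery and carries element II in its promoter, had 520, 522 and 524 CPM with GSK-J4 at 3 h, against 284, 284 and 266 CPM with DMSO (0.91 ± 0.05, edgeR adjusted p = 4.5e-22). At 6 h it had 666, 666 and 649 CPM with GSK-J4, against 282, 266 and 271 CPM with DMSO (1.27 ± 0.05). At 24 h it had 838, 890 and 899 CPM with GSK-J4, against 519, 515 and 544 CPM with DMSO (0.74 ± 0.05). The absolute level was thus highest at 24 h, but DMSO was higher there too, and the difference from DMSO was smaller at 24 h than at 6 h by -0.54 ± 0.07 (edgeR adjusted p = 1.7e-07). With ZnSO4 HERPUD1 had 300, 317 and 327 CPM at 3 h (0.18 ± 0.05), a call lost without DMSO replicate 3 or ZnSO4 replicate 2 or 3, and it was not called at 6 or 24 h.

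EDEM1, which helps mark misfolded glycoproteins for degradation by mannose trimming, had 86, 87.7 and 88.1 CPM with GSK-J4 at 3 h, against 68.8, 64.3 and 70.3 CPM with DMSO (0.37 ± 0.08). At 6 h it had 134, 141 and 139 CPM with GSK-J4, against 74.5, 68.4 and 71.2 CPM with DMSO (0.95 ± 0.08, edgeR adjusted p = 1.1e-15). At 24 h it had 132, 126 and 122 CPM with GSK-J4, against 73.3, 69 and 66.2 CPM with DMSO (0.87 ± 0.08). The groups did not overlap at these 3 times, which was a condition for showing these values, and ZnSO4 gave no call for EDEM1. Its relatives differed from it. EDEM3 was called higher with GSK-J4 at 24 h (0.21 ± 0.07, lost without DMSO replicate 3 or GSK-J4 replicate 1 or 2) and lower with ZnSO4 at 3, 6 and 24 h (-0.27, -0.21 and -0.27). At 3 h EDEM3 had 183, 193 and 192 CPM with ZnSO4, against 232, 222 and 230 CPM with DMSO. The ZnSO4 calls at 6 and 24 h were each lost without 3 of the 6 libraries in turn. EDEM2 was called in no comparison with DMSO.

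SEL1L, the partner of the ubiquitin ligase SYVN1, went up with GSK-J4 and down with ZnSO4. At 24 h SEL1L had 500, 496 and 492 CPM with GSK-J4 and 273, 269 and 259 CPM with ZnSO4, against 305, 319 and 295 CPM with DMSO. The 3 groups did not overlap, and the log2 fold changes were 0.69 ± 0.05 for GSK-J4 (edgeR adjusted p = 2.5e-17) and -0.20 ± 0.05 for ZnSO4 (edgeR adjusted p = 0.0097). That ZnSO4 call was lost without DMSO replicate 2 or ZnSO4 replicate 3, while the direct difference between GSK-J4 and ZnSO4 was 0.89 ± 0.05. At 3 h it had 353, 344 and 330 CPM with GSK-J4 and 242, 254 and 241 CPM with ZnSO4, against 295, 307 and 288 CPM with DMSO (0.21 ± 0.05 and -0.27 ± 0.05). The GSK-J4 call at 3 h was lost without DMSO replicate 1 or 3 or GSK-J4 replicate 1 or 2. SYVN1 itself was called with GSK-J4 at 24 h, with 80.9, 71.9 and 73.3 CPM against 57, 58.1 and 52.3 CPM with DMSO (0.43 ± 0.08). Its exons overlap FAU and MRPL49, so some of its reads may belong to them.

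The 3 derlins, which form part of the channel out of the ER, did not move together. DERL3, the derlin with the most restricted tissue range, had 205, 198 and 189 CPM with GSK-J4 at 24 h and 114, 110 and 103 CPM with ZnSO4, against 141, 125 and 145 CPM with DMSO. The groups were fully separate, at 0.53 ± 0.09 for GSK-J4 (edgeR adjusted p = 2.2e-06) and -0.33 ± 0.10 for ZnSO4 (edgeR adjusted p = 0.018). The ZnSO4 call at 24 h was lost without DMSO replicate 1 or 3 or ZnSO4 replicate 2 or 3. At 6 h both compounds were lower, with 160, 146 and 145 CPM for GSK-J4 and 148, 135 and 119 CPM for ZnSO4 against 167, 161 and 204 CPM with DMSO (-0.24 ± 0.09 and -0.41 ± 0.09). The GSK-J4 call at 6 h was lost without DMSO replicate 3 or GSK-J4 replicate 2 or 3, under DESeq2 and with library totals. DERL2 was called higher with GSK-J4 at 24 h (0.19 ± 0.06, lost without DMSO replicate 2 or GSK-J4 replicate 1), and DERL1 was called in no comparison with DMSO.

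Of the 9 chaperones 5 were lower and 1 higher at 6 h of GSK-J4, where 3 degradation genes were higher and 1 lower. With ZnSO4 at 6 h 3 chaperones were lower and 0 higher, the same counts as for the 9 degradation genes. Over all tested genes 10.5% were lower and 9.83% higher with GSK-J4, and 4.51% were lower with ZnSO4. Each of the 3 ZnSO4 calls among chaperones was lost when some single libraries were left out. HSPA5, also called BiP, the main HSP70 chaperone of the ER, had 1347, 1366 and 1419 CPM with GSK-J4 at 6 h and 1500, 1604 and 1619 CPM with ZnSO4, against 1666, 1729 and 1869 CPM with DMSO. The GSK-J4 libraries were the lowest and did not overlap either other group (-0.35 ± 0.04 against DMSO, edgeR adjusted p = 5.4e-09). ZnSO4 was also below DMSO (-0.16 ± 0.04), a call lost without DMSO replicate 3 or ZnSO4 replicate 1. At 24 h HSPA5 had 4033, 4287 and 4276 CPM with GSK-J4 and 4161, 4199 and 4091 CPM with ZnSO4, against 4148, 4159 and 4121 CPM with DMSO. These groups overlapped, and the differences from DMSO were 0.02 ± 0.04 for GSK-J4 and 0.00 ± 0.04 for ZnSO4.

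SDF2L1, which works with HSPA5 and its J-domain partners, had 82.6, 86.6 and 91.9 CPM with GSK-J4 at 6 h, against 110, 117 and 135 CPM with DMSO (-0.48 ± 0.09, edgeR adjusted p = 1.7e-05). MANF, a secreted protein that is retained in the ER with HSPA5, had 147, 135 and 138 CPM with GSK-J4 at 6 h, against 181, 164 and 189 CPM with DMSO (-0.35 ± 0.06). Neither pair of groups overlapped, which was a condition for showing these values, and neither gene was called with GSK-J4 at 24 h. HSP90B1 was lower with GSK-J4 at 6 h (-0.26 ± 0.05) and at 24 h, where it had 4738, 4645 and 4522 CPM with GSK-J4 against 5322, 5357 and 5101 CPM with DMSO (-0.18 ± 0.05). The 24 h call for HSP90B1 was lost with library totals.

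DNAJB9, a J-domain partner that represses IRE1, was the chaperone gene with the largest rise. At 6 h DNAJB9 had 47.8, 52 and 53.6 CPM with GSK-J4, against 38.1, 38.6 and 35.6 CPM with DMSO (0.44 ± 0.09). At 24 h it had 103, 102 and 111 CPM with GSK-J4 and 47.8, 53.6 and 50.8 CPM with ZnSO4, against 50.2, 52.2 and 53.7 CPM with DMSO. The GSK-J4 libraries were far above the others (1.02 ± 0.07, edgeR adjusted p = 1.1e-17), and the ZnSO4 libraries overlapped DMSO. The effect of GSK-J4 grew by 0.55 ± 0.12 between 3 and 6 h and by 0.58 ± 0.11 between 6 and 24 h. DNAJB9 exons overlap PNPLA8 and THAP5 on the other strand, and the sources used here do not say that strand was counted. HYOU1, a large HSP70 relative, and DNAJC3, an inhibitor of PERK, were also called higher at 24 h with GSK-J4 (0.13 ± 0.05 and 0.18 ± 0.06). Both of these small calls were lost when some single libraries were left out (5 of 6 for HYOU1 and 3 of 6 for DNAJC3). DNAJB11 was called lower with GSK-J4 at 6 h, a call lost when some single libraries were left out. It was called in no other comparison with DMSO, and CRELD2 was called in none.

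The lectin chaperones and disulfide enzymes gave no rise with either compound at any time. With GSK-J4 4 of the 7 were lower at 6 h and 2 at 24 h (10.5% and 16.8% of all tested genes). With ZnSO4 3, 5 and 5 were lower at 3, 6 and 24 h (4.16%, 4.51% and 5.58% of all). Of the 6 h calls, only CALR with GSK-J4 and only CALR and TXNDC5 with ZnSO4 were kept whichever library was left out. The PDIA6 libraries of GSK-J4 and DMSO overlapped at 6 h. CALR, the soluble lectin chaperone calreticulin, had 1447, 1433 and 1387 CPM with GSK-J4 at 24 h and 1559, 1595 and 1507 CPM with ZnSO4, against 1913, 1832 and 1899 CPM with DMSO. All GSK-J4 and ZnSO4 libraries lay below all DMSO libraries, which was a condition for showing these values. The log2 fold changes were -0.40 ± 0.04 (edgeR adjusted p = 3.3e-12) and -0.28 ± 0.04 (edgeR adjusted p = 1.4e-06). At 6 h CALR was lower by -0.26 ± 0.04 and -0.24 ± 0.04. CANX, its membrane-bound relative, was called in no comparison with DMSO (0.03 ± 0.04 and -0.09 ± 0.04 at 24 h).

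TXNDC5, a thioredoxin-domain disulfide enzyme, had the largest falls with ZnSO4 among the 41 genes. It had 120, 91.3 and 116 CPM with ZnSO4 at 3 h, against 133, 139 and 152 CPM with DMSO (-0.38 ± 0.08). At 6 h it had 96.2, 82.5 and 90.8 CPM with ZnSO4, against 126, 136 and 148 CPM with DMSO (-0.60 ± 0.08, edgeR adjusted p = 5.8e-08). At 24 h it had 126, 112 and 109 CPM with ZnSO4, against 173, 186 and 170 CPM with DMSO (-0.61 ± 0.08, edgeR adjusted p = 1.8e-08). The groups did not overlap at any of these times, which was a condition for showing these values. These calls were kept whichever library was left out. GSK-J4 did not pass for TXNDC5 at any time. The gene shares exons with a readthrough locus, BLOC1S5-TXNDC5, so its counts may include or miss reads of that locus. PDIA4, another disulfide isomerase, had 293, 290 and 308 CPM with ZnSO4 and 331, 314 and 318 CPM with GSK-J4 at 24 h, against 369, 360 and 367 CPM with DMSO (-0.30 ± 0.05 for ZnSO4 and -0.18 ± 0.05 for GSK-J4, the second lost with library totals).

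**Figure D3:**
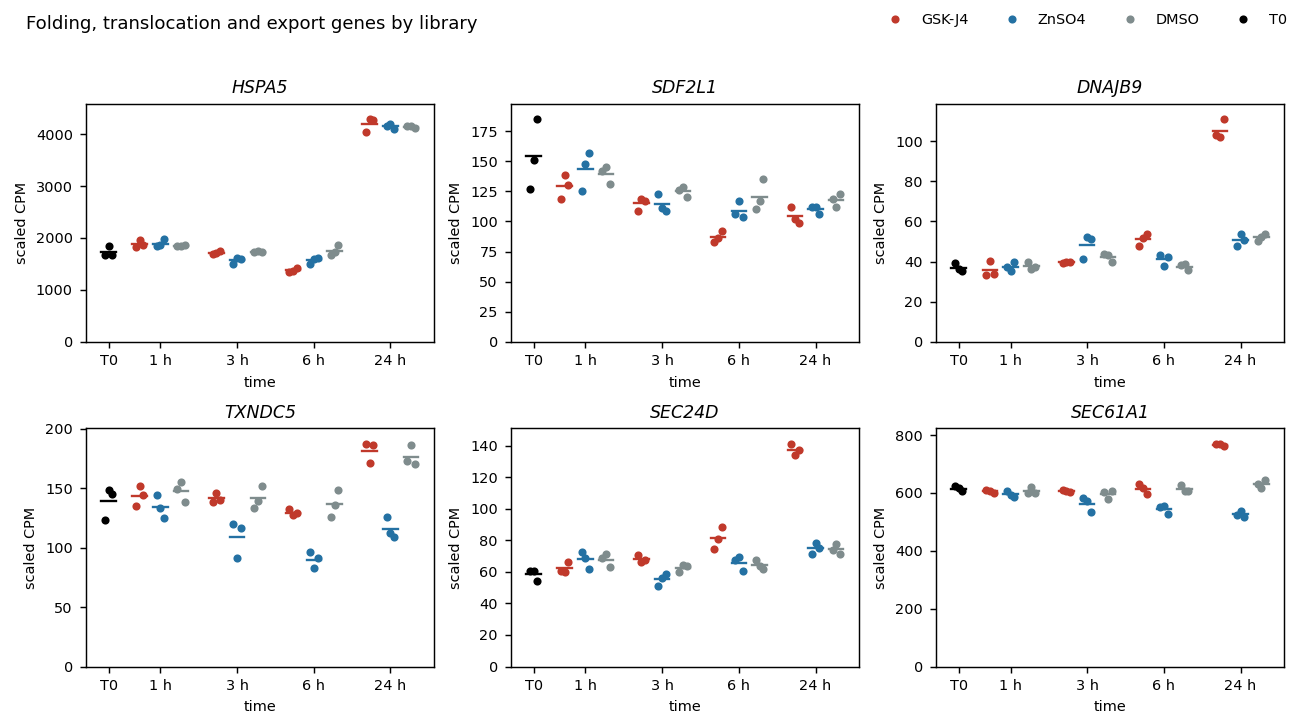
Scaled CPM of 6 folding, translocation and export genes in each library (points) with group means (lines), for T0 and for GSK-J4, ZnSO4 and DMSO at each time. HSPA5 lies between 4033 and 4287 CPM in all 9 libraries of 24 h, TXNDC5 is lowest in the ZnSO4 groups from 3 h, and DNAJB9, SEC24D and SEC61A1 are highest with GSK-J4 at 24 h.

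Translocation and export genes shifted between 6 and 24 h of GSK-J4. At 6 h 5 of the 11 were lower and 1 higher (10.5% and 9.83% of all tested genes). At 24 h 5 were higher and 1 lower (15.2% and 16.8% of all). The 1 higher gene at 6 h is thus near the share over all genes. Of the falls at 6 h, those of SEC61B, SSR3 and SEC11C were lost when some single libraries were left out. The effect at 24 h exceeded that at 6 h for 6 of the 11 in the test of that difference (SEC61A1, SEC61B, SSR1, SSR3, SPCS3 and SEC24D). Over all 41 genes 14 differed between 6 and 24 h of GSK-J4, against 5.75% of all genes, and 7 between 3 and 6 h, against 3.67%. SEC24D, a cargo adaptor of the COPII coat that carries proteins out of the ER, had 141, 134 and 137 CPM with GSK-J4 at 24 h and 71.5, 78.1 and 74.9 CPM with ZnSO4, against 73.9, 77.8 and 71.4 CPM with DMSO. GSK-J4 stood alone above overlapping ZnSO4 and DMSO libraries (0.88 ± 0.07, edgeR adjusted p = 5.1e-17). SEC61A1, the pore subunit of the translocation channel, had 768, 769 and 761 CPM with GSK-J4 at 24 h and 523, 539 and 517 CPM with ZnSO4, against 629, 617 and 643 CPM with DMSO. Here the groups separated in both directions, at 0.28 ± 0.04 for GSK-J4 (edgeR adjusted p = 1.6e-07) and -0.26 ± 0.04 for ZnSO4 (edgeR adjusted p = 1.3e-05).

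Of the 4 subunits of the translocon-associated complex, SSR1, SSR2 and SSR3 were higher at 24 h with GSK-J4 (0.26, 0.21 and 0.15, the call for SSR3 lost without DMSO replicate 3), and SSR4 was called in no comparison with DMSO. SSR1 had 932, 928 and 946 CPM with GSK-J4 and 727, 712 and 679 CPM with ZnSO4, against 793, 789 and 762 CPM with DMSO, without overlap. SPCS1, a small subunit of the signal peptidase, was the only translocation or export gene called lower with GSK-J4 at both 6 and 24 h. It had 316, 291 and 304 CPM with GSK-J4 at 6 h, against 362, 388 and 411 CPM with DMSO (-0.35 ± 0.06). At 24 h it had 347, 316 and 318 CPM with GSK-J4, against 387, 381 and 407 CPM with DMSO (-0.26 ± 0.06). The GSK-J4 and DMSO libraries did not overlap at either time, which was a condition for showing these values. ZnSO4 was at -0.09 and -0.01. SPCS2 and the catalytic SEC11C were lower at 6 h with GSK-J4 (-0.24 and -0.19), the SEC11C call being lost without DMSO replicate 3 or any GSK-J4 replicate. SPCS2 has 4 pseudogenes of its name, whose reads the deposited counts may share. SPCS3 was called lower with ZnSO4 alone (-0.17 at 6 h, lost without DMSO replicate 3 or ZnSO4 replicate 1, and -0.20 at 24 h).

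Summed over each group of genes, the 2 compounds separated at 24 h. Degradation genes together had 2378 ± 17.1 CPM with GSK-J4 and 1553 ± 14 CPM with ZnSO4, against 1652 ± 11.6 CPM with DMSO (SD, n = 3 each). Sensors together had 805 ± 9.07, 565 ± 24.4 and 643 ± 6.51 CPM in the same order of groups, and translocation and export genes had 5062 ± 79.6, 4342 ± 63.6 and 4606 ± 87.8 CPM. The lectin and disulfide genes had 7182 ± 186.0 CPM with GSK-J4 and 6820 ± 128.0 CPM with ZnSO4, both below 7720 ± 64.6 CPM with DMSO. Chaperones had 10733 ± 113.0, 10295 ± 298.0 and 11170 ± 154.0 CPM. These sums weigh abundant genes most, and no test was made on them.

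GSK-J4 was also compared with ZnSO4 directly, so that genes on which they differ have a test of that difference. At 1 h 0 of the 41 were called (0.664% of all tested genes), with 6 at an unadjusted p below 0.05 and 0 by DESeq2. At 3 h 8 were higher and 3 lower (3.99% and 6.12% of all). At 6 h 11 were higher and 6 lower (8.53% and 9.88% of all), and at 24 h 23 were higher and 2 lower (12% and 12.5% of all), with a median of 0.21 over the 41 and 0.01 over all genes. With library totals the 3 h split became 11 higher and 1 lower. The 3 h count fell to 7 without ZnSO4 replicate 1 or 2, and the 6 h count to 11 without ZnSO4 replicate 2. At 24 h the largest differences were ERN1 (1.32 ± 0.09), DNAJB9 (1.05 ± 0.08), SEL1L (0.89 ± 0.05), SEC24D (0.87 ± 0.07) and DERL3 (0.86 ± 0.10). The 2 genes called lower were SPCS1 (-0.25 ± 0.06) and CALR (-0.13 ± 0.04), and CALR lost its call without ZnSO4 replicate 2 or GSK-J4 replicate 3. For HSPA5 the difference at 24 h was 0.02 ± 0.04.

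**Figure D4:**
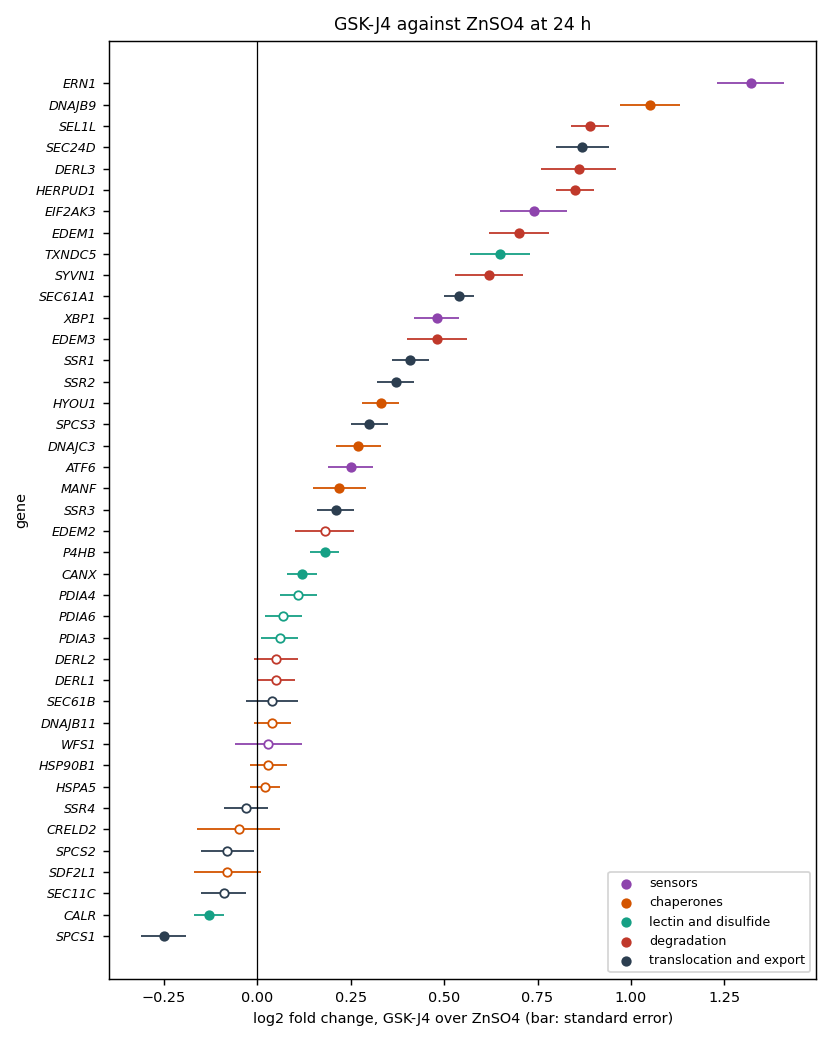
Log2 fold change of GSK-J4 over ZnSO4 at 24 h for the 41 genes, sorted, with the standard error as bars, coloured by role, and with filled points for calls. ERN1 is at the top at 1.32, 23 filled points lie right of 0, and SPCS1 at -0.25 is at the bottom.

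Many of these genes, like many of all tested genes, also moved in the vehicle groups by 24 h. In those groups time and DMSO cannot be told apart. Against T0, 0 of the 41 were called in DMSO at 1, 3 and 6 h (0.0346%, 0.0968% and 0.0138% of all genes). At those times 6, 7 and 10 had an unadjusted p below 0.05, and DESeq2 called 1, 2 and 3. Leaving out T0 replicate 1 gave 5 calls at 3 h and 7 at 6 h, leaving out T0 replicate 2 gave 1, 1 and 2 at the 3 times, and leaving out DMSO 6 h replicate 3 gave 5 at 6 h. At 24 h 22 genes were higher and 8 lower than at T0, where 30.5% of all tested genes were higher and 32.7% lower. With library totals this split became 11 higher and 16 lower, and the median of all genes moved to -0.24, so directions at 24 h depend on the scaling for genes near 0.

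The largest changes did not depend on the scaling for their direction. HSPA5 had 4148, 4159 and 4121 CPM in DMSO at 24 h, against 1668, 1846 and 1679 CPM at T0 (1.26 ± 0.04, edgeR adjusted p = 4e-34). EDEM3 had 67.5, 70.1 and 60.6 CPM in DMSO at 24 h, against 226, 216 and 198 CPM at T0 (-1.69 ± 0.06, edgeR adjusted p = 7.2e-33). MANF had 99.3, 92.8 and 103 CPM in DMSO at 24 h, against 179, 199 and 196 CPM at T0 (-0.96 ± 0.06). None of these groups overlapped: BiP was higher in vehicle-treated cells at 24 h, while MANF and EDEM3 were lower. EIF2AK3 (1.26 ± 0.10), DNAJC3 (1.05 ± 0.06), HERPUD1 (1.00 ± 0.05), DERL2 (0.80 ± 0.06) and DERL1 (0.71 ± 0.05) were also higher, and DERL3 (-0.60 ± 0.09) and SYVN1 (-0.53 ± 0.08) were lower. All 7 lectin and disulfide genes were called higher, though with library totals PDIA4 and PDIA6 turned lower and CALR, CANX and TXNDC5 lost their calls.

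**Figure D5:**
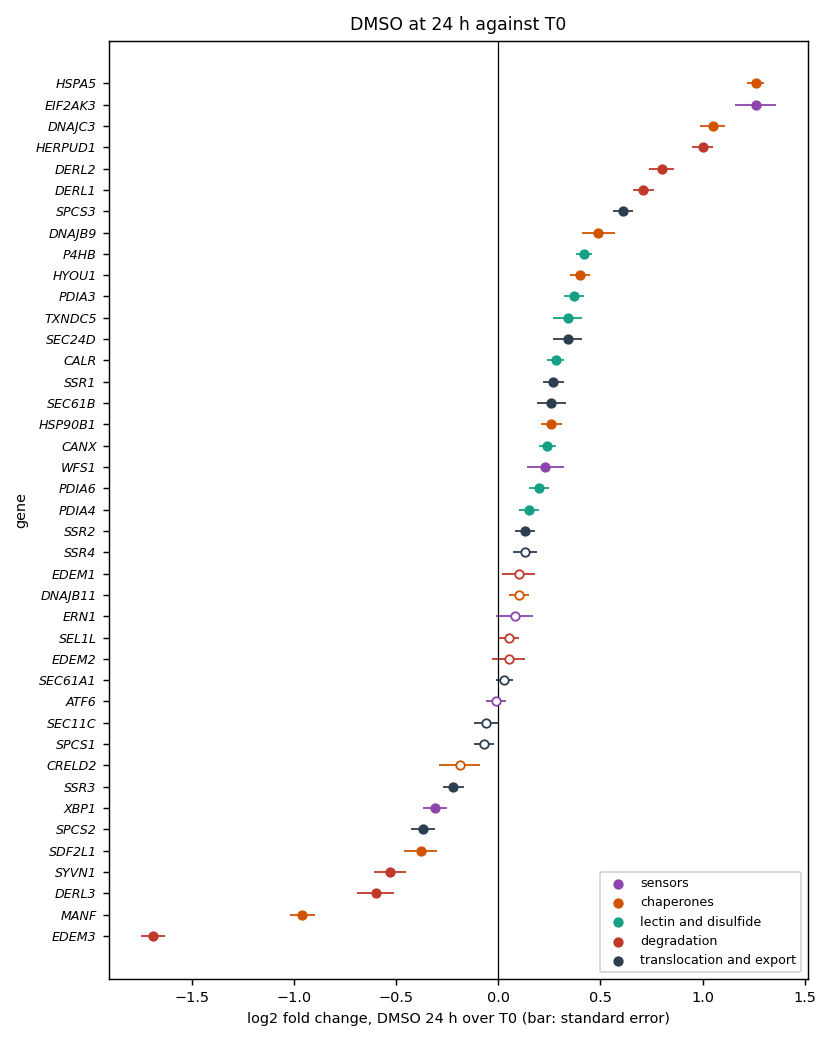
Log2 fold change of DMSO at 24 h over T0 for the 41 genes, sorted, with the standard error as bars, coloured by role, and with filled points for calls. HSPA5 and EIF2AK3 are at the top at 1.26 and EDEM3 at the bottom at -1.69, and the degradation genes lie at both ends.

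Other genes of the same pathways, which are not among the 41, were counted from 7 lists holding 86 tested genes. With GSK-J4 6 were higher and 0 lower at 3 h (1.45% and 0.927% of all tested genes), 12 higher and 17 lower at 6 h (9.83% and 10.5% of all), and 30 higher and 10 lower at 24 h (15.2% and 16.8% of all). With ZnSO4 6 were higher and 3 lower at 3 h (6.59% and 4.16% of all), 1 higher and 13 lower at 6 h (4.81% and 4.51% of all), and 2 higher and 15 lower at 24 h (3.98% and 5.58% of all). The ZnSO4 counts at 3 h are thus near the share over all genes. The 8 genes listed as the PERK arm moved most (ATF4, DDIT3, ATF3, TRIB3, PPP1R15A, PPP1R15B, CHAC1 and EIF2S1). That name is only a label of the list, and whether PERK itself acted on them was not tested. With GSK-J4 6, 7 and 5 of them were higher at 3, 6 and 24 h and 0, 1 and 2 lower, and with ZnSO4 6, 1 and 2 were higher and 0, 2 and 3 lower. CHAC1, a glutathione-degrading enzyme and ATF4 target, had 345, 385 and 379 CPM with GSK-J4 at 6 h and 24.3, 21.2 and 16.7 CPM with ZnSO4, against 54.2, 48 and 19 CPM with DMSO. The GSK-J4 libraries lay far above the rest (3.19 ± 0.14), while 1 DMSO library fell among the ZnSO4 ones (-0.97 ± 0.20 for ZnSO4). The largest called changes of other lists were smaller. They were CREB3L2, a membrane-bound transcription factor (0.75 ± 0.09 with GSK-J4 at 6 h), UBXN4, a degradation factor (0.64 ± 0.05 at 24 h), and ARFGAP3, a regulator of vesicle coats (0.71 ± 0.09 at 24 h). With ZnSO4 UBE2J1, an ER ubiquitin-conjugating enzyme, was lower (-0.39 ± 0.05 at 6 h). Of the 16 other ER export genes 8 were higher and 0 lower with GSK-J4 at 24 h, and 0 were called with ZnSO4 at 24 h, where 3 had an unadjusted p below 0.05.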

How the data were processed

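RNA was measured in 39 libraries of JJN3 cells, made from Trizol RNA with a NEBNext Ultra RNA kit, per the labels' protocols. The label on treatment names 3, 6 and 24 h, and the sample labels also give 1 h. Reads were aligned with HISAT2 2.1.0 to hg19, per the submitters' processing notes. No source used here gives the counting tool, its annotation or its strand setting. The deposited values are raw counts per gene, which the authors left without normalization. Each column was tied to its sample by name, and the groups come from the labels. Replicate numbers follow the order of samples and pair nothing.

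The 41 genes, their grouping and the lists of other pathway genes were chosen with earlier results of these data known. All 39 libraries were fitted together in edgeR 4.0.16 (R 4.3.3, limma 3.58.1), with TMM factors, the expression filter at a minimum count of 10 and 1 coefficient per group. Quasi-likelihood F-tests compared groups at the same time, DMSO with T0, and a compound's effect between times. The biological coefficient of variation was 4.8%. Adjusted p-values are Benjamini-Hochberg values over 14460 genes in each comparison, with calls below 0.05. An SE is the size of the log2 fold change over the square root of F. The procedure was tested on simulated data. Replicates differed beyond counting noise (chi-squared per gene 1.195 to 6.588), so none was taken as a duplicate. Levels per kb use merged GENCODE 29 exons, which are of another build than the alignment and served only for lengths, overlaps and names. Exons of 22 of the 41 genes overlap a gene on the other strand and 5 one on the same strand, and 5 have a pseudogene of their name. Reads of such genes, with SPCS1, DERL3 and SEC61A1 among those overlapped on the other strand, cannot be told apart here.

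Genes with values in every library were those with the largest called changes whose groups did not overlap, up to 4 in each direction per compound and time, plus ERN1, XBP1, ATF6, EIF2AK3 and HSPA5. For genes picked by the first rule, the lack of overlap follows from the choice and adds no support. Values of SYVN1, SSR1 and SEC61A1 were added after they were seen, as were those of DERL3 and SEL1L at some times, and those compared with T0. Pathway genes were named as the largest called change per list. Alternatives were other scalings, no filter, DESeq2 1.42.0, the compared groups alone, no 24 h libraries, and each library left out.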

Additional observations from a re-analysis of the deposited data

Results flagged for a closer look

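The effect of a compound (log2 fold change over DMSO) differed between neighbouring times for the following genes, by edgeR's test of that difference with Benjamini-Hochberg adjustment. For GSK-J4 between 3 and 6 h, 5 of the 41 genes had a more positive effect at 6 h and 2 a more negative one, against 3.67% of all tested genes that differed. ERN1 differed by 0.54, XBP1 by 0.27, DNAJB9 by 0.55, HERPUD1 by 0.37 and EDEM1 by 0.58. HSPA5 differed by -0.33 and CALR by -0.22. The differences of ERN1, HSPA5, DNAJB9, HERPUD1 and EDEM1 passed whichever library was left out, while that of XBP1 was lost without 11 of the 12 libraries.

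For GSK-J4 between 6 and 24 h, 13 genes had a more positive effect at 24 h and 1 a more negative one, against 5.75% of all tested genes. Among the sensors and chaperones EIF2AK3 differed by 0.51, HSPA5 by 0.37, DNAJB9 by 0.58 and MANF by 0.33. Among degradation genes SEL1L differed by 0.27, DERL3 by 0.76 and EDEM3 by 0.30, and HERPUD1 by -0.54. Among translocation and export genes SEC61A1 differed by 0.28, SEC61B by 0.35, SSR1 by 0.37, SSR3 by 0.32, SPCS3 by 0.22 and SEC24D by 0.55. Of these 14 differences 8 passed whichever library was left out (HSPA5, DNAJB9, HERPUD1, DERL3, SEC61A1, SSR1, SSR3 and SEC24D).

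For ZnSO4 between 3 and 6 h the effect on ERN1 differed by -0.54. That difference was lost without DMSO 3 h replicate 1 or ZnSO4 3 h replicate 3. Between 6 and 24 h of ZnSO4 0 of the 41 genes differed by edgeR, with 4 at an unadjusted p below 0.05 and 1 by DESeq2. The share of all tested genes is not given here for either ZnSO4 difference, so these counts cannot be set against it.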

How the results depend on the processing

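Of 196 calls, 195 kept direction and side of the threshold under the other size factors, 193 under DESeq2, 183 with only the compared groups, 171 with library totals and 162 without the filter, and 84 of 88 without the 24 h libraries. With library totals the DMSO 24 h against T0 changes of PDIA4 (-0.07), PDIA6 (-0.02) and SSR2 (-0.09) reversed, and GSK-J4 against ZnSO4 at 1 h had 1 call. Without the filter the calls were 5 for ZnSO4 at 3 h, 2 for DMSO at 3 h and 2 at 6 h against T0, 7 for the GSK-J4 effect from 6 to 24 h and 2 for the ZnSO4 effect from 3 to 6 h. With only the compared groups there were 11 for GSK-J4 at 3 h, 7 for ZnSO4 at 6 h and 11 for the GSK-J4 effect from 3 to 6 h. DESeq2 called 1, 2 and 3 for DMSO against T0 at 1, 3 and 6 h and 1 for the ZnSO4 effect from 6 to 24 h. The cause of these shifts was not tested. Shares of all genes called under these settings are not given here, so the counts cannot be set against them.

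With each library left out in turn, calls ranged from 3 to 4 (GSK-J4 at 3 h), 15 to 22 (6 h) and 19 to 21 (24 h), 5 to 8, 8 to 16 and 8 to 14 (ZnSO4 at 3, 6 and 24 h), 0 to 1, 7 to 10, 11 to 17 and 22 to 24 (GSK-J4 against ZnSO4 at 1, 3, 6 and 24 h), and 0 to 1, 0 to 5, 0 to 7 and 29 to 31 (DMSO against T0 at the same times). They ranged from 5 to 8 and from 9 to 13 for the GSK-J4 effect from 3 to 6 h and from 6 to 24 h, and from 0 to 1 for the ZnSO4 effect from 3 to 6 h. The lowest of the GSK-J4 effect from 6 to 24 h came without GSK-J4 6 h replicate 2. No paired analysis was possible because the replicate numbers follow sample order and pair nothing. With 3 libraries a group, small changes of low genes may be missed.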
